A study of Mus musculus with 6 samples.

Results

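Adipoq and 9 other genes known from adipocytes (Plin1, Cfd, Retn, Aqp7, Pck1, Car3, Fabp4, Cidec and Lep) were followed in endothelial cells (ECs) of the mouse lung after unilateral pneumonectomy (PNX), in which a lung is taken out and the one left behind grows. They are 10 of the 24063 gene symbols in the deposited counts. They were chosen by name, and several because their counts went from near 0 in sham-operated mice to higher values after PNX. The difference between PNX and sham in these 10 genes is therefore given as a description, with no test.

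The authors isolated the ECs from lungs of male C57BL6 mice with magnetic beads carrying an antibody to CD31, and sequenced 3 RNA libraries of sham controls and 3 of animals at day 7 after PNX, with RNA of 2 mice pooled in each. The labels give an age of 8 weeks, and the methods an older age. All animals were of the same strain and carried no engineered allele, and the beads enrich for ECs without excluding other cells. The labels mark libraries 1 and 2 of both groups, but not library 3, as taken over from an earlier record. Within a group, libraries 1 and 2 were close to counting error of each other (chi-square per degree of freedom 1.75 in sham and 1.57 in PNX, against 67.9 to 86.4 for pairs with library 3). Their sum was therefore used as 1 sample, giving 2 samples per group. Total counts were 33374216 to 81282871 per sham library and 29526989 to 74382176 per PNX library, lowest in library 3 of each group. Pecam1, which encodes CD31, was at 2523 and 2020 CPM (the count over the TMM-scaled library size, the unit of all levels unless stated) in the sham samples and at 2461 and 2128 CPM in the PNX samples. In bulk RNA, fewer cells of a type and less RNA per cell cannot be told apart.

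Adipocytes store fatty acids as triglyceride in a large lipid droplet, release them by lipolysis, and secrete hormones called adipokines, among them adiponectin (Adipoq), leptin (Lep), complement factor D or adipsin (Cfd) and, in mice, resistin (Retn). Plin1 and Cidec coat the droplet and make it grow, Aqp7 lets glycerol leave the cell, and Pck1 makes the glycerol backbone for new triglyceride from non-sugar precursors. Car3 encodes a cytosolic carbonic anhydrase abundant in fat and muscle, and Fabp4 a fatty acid carrier that capillary ECs also express.

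The promoters of Adipoq, Pck1, Cfd and Plin1 are shown because these genes differ in how closely they followed each other across the samples described next. Each line holds the 250 bases before the RefSeq start of the gene, 5′ to 3′ on the strand of the gene, from GRCm38.p6. Capitals mark matches to any of 6 short motifs. The windows are chr16:23146286-23146535 (plus strand) for Adipoq, chr2:173152823-173153072 (plus strand) for Pck1, chr10:79890603-79890852 (plus strand) for Cfd and chr7:79732777-79733026 (minus strand) for Plin1.
Adipoq: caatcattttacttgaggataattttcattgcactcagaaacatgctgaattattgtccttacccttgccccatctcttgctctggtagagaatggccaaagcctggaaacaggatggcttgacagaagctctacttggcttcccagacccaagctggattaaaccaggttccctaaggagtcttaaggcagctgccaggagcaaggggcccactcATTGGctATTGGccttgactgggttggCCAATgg
Pck1: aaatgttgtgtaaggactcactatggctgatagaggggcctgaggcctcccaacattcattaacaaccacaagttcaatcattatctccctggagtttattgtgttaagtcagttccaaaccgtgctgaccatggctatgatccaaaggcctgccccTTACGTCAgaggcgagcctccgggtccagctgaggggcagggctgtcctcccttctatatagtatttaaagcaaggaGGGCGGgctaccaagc
Cfd: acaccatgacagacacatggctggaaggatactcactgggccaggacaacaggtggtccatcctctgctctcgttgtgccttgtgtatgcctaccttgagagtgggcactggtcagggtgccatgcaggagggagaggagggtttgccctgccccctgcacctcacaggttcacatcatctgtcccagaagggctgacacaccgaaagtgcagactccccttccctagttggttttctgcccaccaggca
Plin1: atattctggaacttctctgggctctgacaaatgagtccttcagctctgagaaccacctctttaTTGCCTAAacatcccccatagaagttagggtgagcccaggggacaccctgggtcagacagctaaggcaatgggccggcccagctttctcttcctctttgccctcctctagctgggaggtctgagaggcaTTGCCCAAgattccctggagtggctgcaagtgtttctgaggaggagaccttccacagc

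The motifs were the CCAAT box (CCAAT), the TATA box (TATAAA), the core of C/EBP sites (TTGCNNAA), a nuclear receptor half-site (AGGTCA), a cAMP response element (TNACGTCA) and a GC box (GGGCGG). Each was searched on both strands, and they were chosen after the sequences had been seen. CCAAT was present in 33.8% of 32851 promoter windows of this length, TATAAA in 12.4%, TTGCNNAA in 9.56%, AGGTCA in 14.0%, TNACGTCA in 2.52% and GGGCGG in 32.7%. Adipoq had 3 matches to CCAAT, at 34 to 30 and 27 to 23 bases before the start on the minus strand and at 7 to 3 bases on the plus strand. Pck1 had TNACGTCA at 93 to 86 bases and GGGCGG at 16 to 11 bases, and Plin1 had TTGCNNAA at 187 to 180 and at 58 to 51 bases. For Pck1 and Plin1, the gene as positioned in GENCODE, given below, starts inside the window. The GGGCGG of Pck1 and the nearer TTGCNNAA of Plin1 thus lie within the gene by that annotation. Cfd held none of the 6 motifs in its window. None of the motifs was common to these 4 promoters, and no matches in them overlapped each other. A match is a string of letters and not a shown binding site. Among 8 of the 10 genes with a RefSeq window, TTGCNNAA was found for 3 (Plin1, Cidec and Lep), GGGCGG for 2 (Pck1 and Lep), CCAAT for 1 (Adipoq), AGGTCA for 1 (Aqp7) and TNACGTCA for 1 (Pck1).

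Adipokine transcripts were nearly absent from the sham libraries. Adipoq (chr16:23146536-23158028, plus strand, no overlapping gene) had 1, 1 and 0 counts in sham libraries 1, 2 and 3 and 83, 93 and 17 after PNX. The counts of the PNX libraries all lay above those of the sham libraries, and PNX library 3 was the lowest of the PNX libraries in CPM too. The mean level was 0.00665 ± 0.00941 CPM over the sham samples and 0.914 ± 0.477 CPM over the PNX samples (SD, n = 2 per group).

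Cfd (chr10:79890853-79892655, plus strand, no overlapping gene), the first protease of the alternative complement pathway, was counted on 2 transcripts whose counts were equal throughout. Each had 9, 7 and 1 counts in sham and 413, 403 and 16 after PNX. PNX libraries 1 and 2 were thus far above the other libraries, and PNX library 3, at 1.07 CPM, was nearer to the sham libraries, of which the highest was at 0.223 CPM. Summed over both transcripts, the mean level was 0.136 ± 0.109 CPM over the sham samples and 6.34 ± 7.44 CPM over the PNX samples (SD, n = 2 per group), with an SD as large as the mean because the PNX samples were at 11.6 and 1.08 CPM.

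Retn (chr8:3655770-3660110, plus strand, no overlapping gene), which in mice is a product of fat, had a summed count of 6, 4 and 1 in sham and 18, 12 and 4 after PNX. Its levels of 0.0480 ± 0.0262 CPM and 0.174 ± 0.0550 CPM (SD, n = 2 per group) did not overlap between the groups. Both of its transcripts had the same count in every library but sham library 3, where one had 1 and the other 0. Lep (chr6:29060220-29073877, plus strand, no overlapping gene), the satiety hormone of fat, had 0 counts in every sham library and 1, 2 and 0 counts after PNX. A count of 0 allows up to 3 counts, so leptin mRNA was not distinguishable from absent in either group at this depth.

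**Figure D1:**
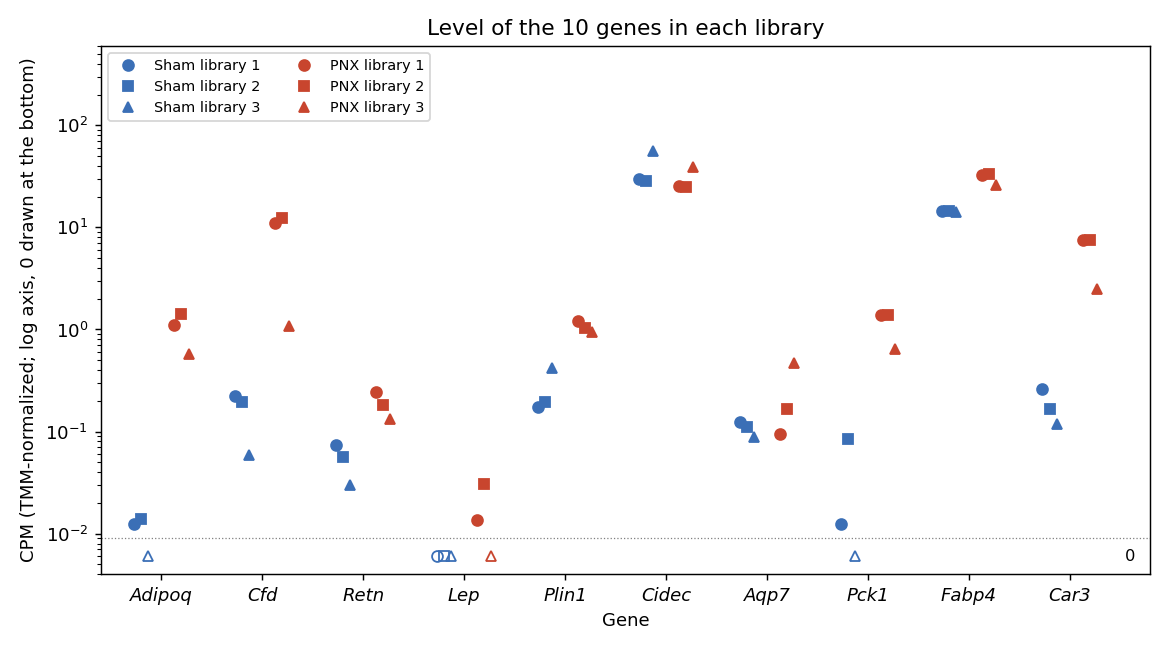
Level of each of the 10 genes in the 6 libraries, in CPM after TMM scaling on a log axis (blue, sham; red, PNX; circles, squares and triangles, libraries 1, 2 and 3; open symbols under the dotted line, 0 counts). Adipoq, Cfd, Retn, Plin1, Pck1, Fabp4 and Car3 have all PNX symbols above all sham symbols, Cidec and Aqp7 overlap, and Cfd has PNX samples at 11.6 and 1.08 CPM.

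The lipid droplet genes parted from each other. Plin1 (chr7:79720218-79732903, minus strand, no overlapping gene), the coat protein that controls lipolysis, was counted on 2 transcripts with equal counts, each with 7, 7 and 7 counts in sham and 45, 34 and 14 after PNX. Its summed level was 0.299 ± 0.160 CPM over the sham samples and 1.04 ± 0.123 CPM over the PNX samples (SD, n = 2 per group), and sham library 3, at 0.416 CPM, was the closest to the PNX libraries.

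Cidec (chr6:113424634-113435760, minus strand, no overlapping gene), which promotes fusion of lipid droplets, was not near 0 in any library. Each of its 2 transcripts, again with equal counts, had 1200, 1024 and 935 counts in sham and 949, 818 and 581 after PNX. The summed level was 42.3 ± 18.0 CPM over the sham samples and 32.2 ± 10.1 CPM over the PNX samples (SD, n = 2 per group), and the groups overlapped, since sham was at 29.6 and 55.0 CPM and PNX at 25.1 and 39.4 CPM. Library 3 was the higher sample in both groups, by 1.86 times in sham (exact 95% interval 1.72 to 2.01) and 1.57 times in PNX (1.42 to 1.72). Here and in the ratios of levels that follow, the interval is Clopper-Pearson on the share of the counts. Where the sham count is 0, the lower limit is from an exact Poisson interval on the PNX count. Ratios per Adipoq count and their intervals are from Fisher's exact test on the counts. All of these intervals use 1 transcript per gene and cover counting error only.

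The genes of glycerol handling also differed. Pck1 (chr2:173153048-173159273, plus strand, no overlapping gene), the cytosolic phosphoenolpyruvate carboxykinase, had 1, 6 and 0 counts in sham and 103, 91 and 19 after PNX, at 0.0233 ± 0.0329 and 1.01 ± 0.520 CPM (SD, n = 2 per group). The 6 counts of sham library 2 were its highest sham value, still under the 19 of PNX library 3. Aqp7 (chr4:41033074-41048139, minus strand, no overlapping gene), the glycerol channel, had 10, 8 and 3 counts in sham and 7, 11 and 14 after PNX. The groups overlapped in libraries 1 and 2, and PNX library 3, at 0.469 CPM, stood above the other libraries, which were at 0.0891 to 0.168 CPM. Its means were 0.104 ± 0.0222 CPM over the sham samples and 0.301 ± 0.245 CPM over the PNX samples (SD, n = 2 per group).

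Car3 (chr3:14863512-14872523, plus strand, no overlapping gene) had 21, 12 and 4 counts in sham and 561, 491 and 74 after PNX. Its level was 0.169 ± 0.0720 CPM over the sham samples and 4.99 ± 3.52 CPM over the PNX samples (SD, n = 2 per group), with the PNX samples at 7.48 and 2.51 CPM. Fabp4 (chr3:10204088-10208576, minus strand, no overlapping gene) had 1169, 1037 and 479 counts in sham and 2438, 2183 and 784 after PNX. At 14.4 ± 0.408 CPM over the sham samples and 29.7 ± 4.45 CPM over the PNX samples (SD, n = 2 per group), it had the smallest spread among sham samples relative to its mean, and its groups did not overlap.

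Expressed as ratios of PNX to sham over all libraries, 9 of the genes spanned from 104 times for Adipoq to 0.805 times for Cidec. The ratio was 104 (exact 95% interval 28.5 to 869) for Adipoq, 53.0 (32.9 to 91.4) for Cfd, 33.0 (23.8 to 47.0) for Car3 and 32.9 (15.7 to 82.9) for Pck1. These intervals overlap, so counting error alone leaves their order unresolved. Plin1 had a ratio of 4.80 (2.96 to 8.11), Retn 3.07 (1.15 to 9.50), Fabp4 2.18 (2.08 to 2.28), Aqp7 1.65 (0.923 to 3.01) and Cidec 0.805 (0.763 to 0.849), and no ratio was formed for Lep.

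The ratios were next set out within each pair of samples, libraries 1 and 2 of PNX over those of sham, and library 3 over library 3. In libraries 1 and 2 they were 94.0 for Adipoq (25.6 to 782), 54.5 for Cfd (33.4 to 95.8), 34.1 for Car3 (24.1 to 49.7) and 29.6 for Pck1 (14.1 to 74.6). In library 3, Adipoq and Pck1 had 0 sham counts and were at least 6.52-fold and at least 7.29-fold higher, taking the 3 counts that a 0 allows as the sham level (lower 95% limits 3.80 and 4.39). Cfd was 18.4 times higher there (2.86 to 772) from 1 sham count, and Car3 21.3 times (7.97 to 80.2). These ratios restate how the genes were chosen and are given as sizes only.

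The other genes were less uniform between the pairs. Plin1 was 6.03 times higher in libraries 1 and 2 (3.39 to 11.5) and 2.30 times in library 3 (0.869 to 6.74), an interval that includes 1. Retn was 3.21 times higher in libraries 1 and 2 (1.11 to 11.3), and library 3 had too few counts for a ratio. Fabp4 was 2.24 times higher (2.13 to 2.36) and 1.88 times higher (1.68 to 2.11), and Cidec 0.849 times (0.797 to 0.904) and 0.715 times (0.644 to 0.794) its sham level. Aqp7 had a ratio of 1.07 in libraries 1 and 2 (0.524 to 2.18) and 5.37 in library 3 (1.50 to 29.1), so its higher mean after PNX came from library 3.

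**Figure D2:**
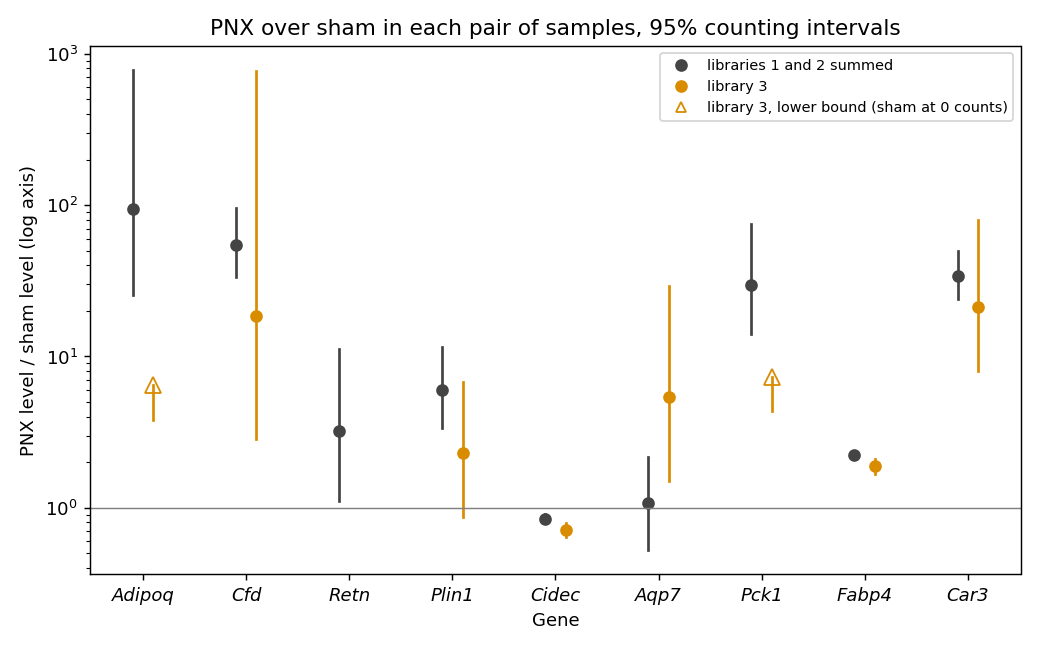
Ratio of the PNX level to the sham level on a log axis for 9 genes, in libraries 1 and 2 summed (grey) and in library 3 (orange), with 95% counting intervals. Open triangles are lower bounds where sham library 3 had 0 counts, with the line reaching down to the lower limit, and Adipoq, Cfd, Pck1 and Car3 lie far above 1 in both pairs while Aqp7 does so only in library 3.

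Levels can be compared between genes only per length of transcript, for which the TPM values of the authors were used. In the sham samples Fabp4 was at 57.2 and 55.3 TPM and Cidec at 21.5 and 40.2 TPM, while each of the other genes was at most 0.354 TPM in either sample. After PNX the order by mean was Fabp4 (127.6 and 104 TPM in libraries 1 and 2 and in library 3), Cidec (18.2 and 28.7 TPM), Cfd (15.7 and 1.47 TPM), Car3 (12.2 and 4.12 TPM), Adipoq (2.55 and 1.17 TPM) and Pck1 (1.31 and 0.618 TPM). Plin1 followed at 0.748 and 0.640 TPM, Retn at 0.452 and 0.292 TPM, Aqp7 at 0.128 and 0.472 TPM, and Lep at 0.0167 and 0 TPM. The ranges of the neighbours Cfd and Car3, Adipoq and Pck1, Pck1 and Plin1, and Retn and Aqp7 overlapped, so their order is not resolved by these samples. The same holds for Cfd and Adipoq, since Cfd in library 3 lay within the range of Adipoq. The most abundant adipocyte transcripts of the 10 after PNX, Fabp4 and Cidec, were thus those already present in the sham samples. Which cells held them was not tested.

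The PNX samples differed from each other in most of these genes. Adipoq in PNX library 3 was 0.460 times its level in PNX libraries 1 and 2 (exact 95% interval 0.262 to 0.758), Pck1 0.467 times (0.275 to 0.749) and Car3 0.335 times (0.261 to 0.425). Cfd was 10.7 times lower in library 3 (6.55 to 18.8). Aqp7 went the other way and was 3.71 times higher in library 3 (1.71 to 7.89), as was Cidec.

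The same difference was expressed per count of Adipoq, which removes any common factor. Pck1 had 1.10 counts per Adipoq count in PNX libraries 1 and 2 and 1.12 in PNX library 3, a ratio between them of 0.986 (95% interval 0.465 to 2.07). Car3 had 5.98 and 4.35 counts per Adipoq count, with a ratio of 1.37 (0.741 to 2.42) that includes 1, and Plin1 0.449 and 0.824, with a ratio of 0.546 (0.240 to 1.26). The intervals of these 3 genes are wide and all include 1, so a change in their proportion to Adipoq was not detectable at this depth.

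Cfd differed in its proportion to Adipoq, with 4.64 counts per Adipoq count in libraries 1 and 2 and 0.941 in library 3, a ratio of 4.92 (2.29 to 10.6). Aqp7 had 0.102 and 0.824 counts per Adipoq count (ratio 0.126, 0.0487 to 0.324), Cidec 10.04 and 34.2 (ratio 0.294, 0.166 to 0.489) and Fabp4 26.3 and 46.1 (ratio 0.569, 0.322 to 0.945). The intervals of these 4 genes exclude 1. These intervals hold counting error only, and the PNX samples differed beyond it in most genes, as the chi-square values above show.

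**Figure D3:**
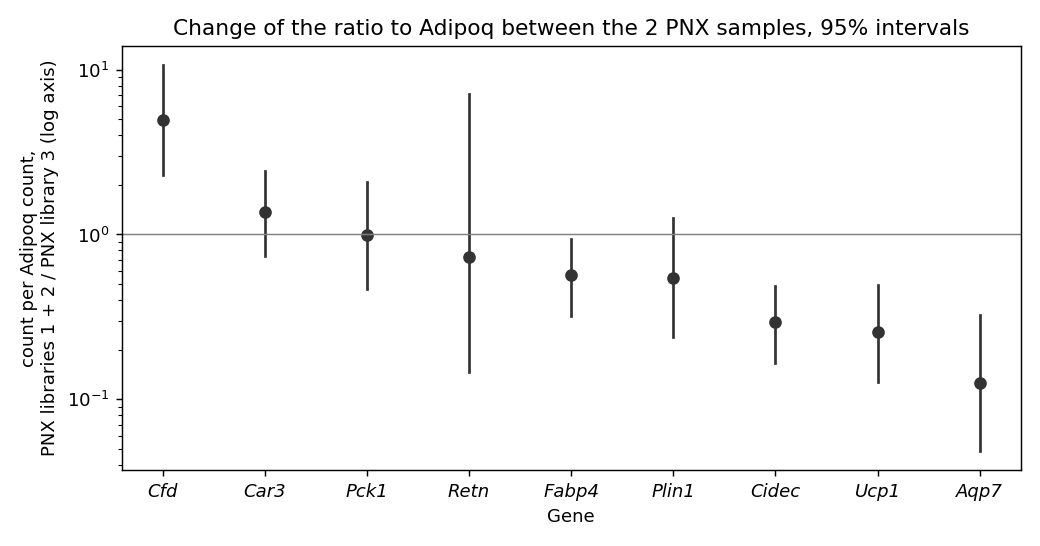
Count per Adipoq count in PNX libraries 1 and 2 divided by that in PNX library 3, on a log axis, with 95% counting intervals, for 8 of the genes and for Ucp1. Cfd lies above 1 at 4.92, Car3, Pck1, Retn and Plin1 have intervals that include 1, and Fabp4, Cidec, Ucp1 and Aqp7 lie below it.

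For all genes, the contrast of PNX with sham was fitted in edgeR (quasi-likelihood test). Calls needed an adjusted p (Benjamini-Hochberg) below 0.01 together with a log2 fold change beyond 1 in either direction. With the 4 samples, 0 of 16598 genes were called (percent called 0), while 2076 had an unadjusted p under 0.05. With 2 samples per group, this 0 does not show that no gene changed. From these 4 samples DESeq2 called 587 genes and limma-voom 0. With the replicate block, which sets library 3 of PNX against library 3 of sham and the summed libraries against each other and leaves 1 residual degree of freedom, edgeR called 849 genes (5.12%), 645 higher (3.89%) and 204 lower (1.23%). With the 6 libraries entered as separate replicates it called 409 genes (2.51% of 16263).

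Of the 10 genes, all but Lep, 9 in number, passed the filter on low counts and were fitted. None was called with the 4 samples, 5 were called higher with the replicate block (Adipoq, Cfd, Pck1, Car3 and Fabp4, beside 3.89% of all genes) and 3 with 6 separate libraries (beside 2.28%). All 3 PNX libraries lay above all 3 sham libraries in 7 of the 10, beside 18.8% of all genes tested. Because this contrast helped to choose the genes, these counts support nothing. The fitted log2 fold changes with no block were 6.31 for Adipoq, 5.29 for Cfd, 4.84 for Pck1, 4.76 for Car3, 1.92 for Plin1, 1.70 for Retn, 1.25 for Aqp7, 1.05 for Fabp4 and −0.39 for Cidec.

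Of the wider adipocyte programme, 64 genes in 4 lists that are not among the 10 were examined, of which 62 were tested. With the 4 samples edgeR called 0 of them. An unadjusted p under 0.05 was found for 14 of the 62, a larger share than the 2076 of 16598 over all genes. These 14 went both ways. Among them, with no block, Ebf2 (log2 fold change 2.70) and Retnla (1.62) were higher, and Klf15 (−1.52) and Pnpla2 (−0.37) lower. From the 4 samples DESeq2 called 2 of the 64, beside 587 of 19812 over all genes, and limma-voom called 0. Under the replicate block 2 were called higher and 1 lower, a share close to the 5.12% of all genes called in this fit, and with 6 separate libraries 0. Of the 62 genes, 25 had a log2 fold change above 0 and their median was −0.06, beside −0.01 over all genes tested.

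Among the adipogenic transcription factors, all 11 tested, the median log2 fold change was −0.14. The adipocyte master regulator Pparg was at 35.0 and 48.4 CPM in the sham samples and at 27.8 and 45.0 CPM in the PNX samples, and Cebpa, which acts with it, at 205 and 236 CPM and at 176 and 202 CPM, and the groups overlapped for Pparg. Rxra, the nuclear receptor that pairs with Pparg and the most abundant of the list, was at 241 and 274 CPM in the sham samples, against 224 and 274 CPM after PNX.

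Ebf2, a regulator of brown and beige fat precursors, had 22, 8 and 6 counts in sham and 86, 60 and 44 after PNX. It was called higher with the replicate block (log2 fold change 2.59, standard error 0.35, edgeR adjusted p = 0.00276), but not without it (adjusted p = 0.108). Klf15, a factor of lipid and glucose metabolism in fat and muscle, had 1134, 1086 and 267 counts in sham and 403, 381 and 65 after PNX. It was called lower with the block (log2 fold change −1.57, standard error 0.15, edgeR adjusted p = 0.000654) and not without it (adjusted p = 0.368).

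None of the 15 genes of the lipid droplet and lipolysis list was called with or without the block, with a median log2 fold change of −0.18 with no block. It holds the lipases Lipe, at 119 and 73.5 CPM in the sham samples, against 93.2 and 69.1 CPM after PNX, and Pnpla2, at 258 and 271 CPM and at 202 and 207 CPM. Mgll, the monoglyceride lipase and the most abundant of the list, was at 392 and 351 CPM in the sham samples, against 301 and 304 CPM after PNX. Plin4, a droplet coat protein made chiefly by white adipocytes, was at 1.67 and 2.47 CPM in the sham samples, against 2.45 and 1.08 CPM after PNX. None of the 20 genes of fatty acid uptake and triglyceride synthesis was called either, with a median of −0.12. Cd36, the fatty acid transporter that lung capillary ECs express strongly, was its most abundant gene, at 9545 and 6810 CPM in the sham samples, against 6211 and 4664 CPM after PNX.

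Of 18 secreted and surface genes of adipocytes, 16 were tested, with a median log2 fold change of 0.38. Retnla, which encodes a resistin-like molecule that macrophages also secrete, had 704, 719 and 541 counts in sham and 3451, 2911 and 956 after PNX. It was the only call of this list, with the block (log2 fold change 1.68, standard error 0.25, edgeR adjusted p = 0.00444) and not without it (adjusted p = 0.157). Nampt, the most abundant of the list, was at 82.6 and 71.3 CPM in the sham samples, against 73.1 and 66.5 CPM after PNX. Mrap, an accessory protein of the corticotropin receptor, had 11, 4 and 2 counts in sham and 38, 31 and 12 after PNX, and missed the threshold with the block (log2 fold change 2.38, edgeR adjusted p = 0.0111). Agt (log2 fold change 1.88) and Aoc3 (0.98) were not called either. For both, all PNX libraries lay above all sham libraries in CPM, as they did for 18.8% of all genes tested. Adig, a small protein of adipocyte membranes, had 4, 6 and 8 counts in sham and 12, 8 and 4 after PNX. Of the receptors for adiponectin and leptin, Adipor1, Adipor2, Cdh13 and Lepr, 0 of 4 were called, and Lepr, the most abundant, was at 242 and 204 CPM in the sham samples, against 183 and 129 CPM after PNX.

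Brown adipocytes make heat through Ucp1, a channel of the inner mitochondrial membrane that dissipates the proton gradient. Ucp1 had 1, 2 and 3 counts in sham and 46, 46 and 35 after PNX, 22.9 times higher over all libraries (exact 95% interval 10.2 to 63.6). It was called with the replicate block (log2 fold change 4.43, standard error 0.51, edgeR adjusted p = 0.00138) and with 6 separate libraries (adjusted p = 0.00739), but not with the 4 samples and no block (adjusted p = 0.134). Unlike Adipoq, Ucp1 was higher in PNX library 3 than in PNX libraries 1 and 2, by 1.81 times (1.19 to 2.70). Per Adipoq count it had 0.523 and 2.06 counts, a ratio of 0.255 (0.127 to 0.497). Of 10 brown adipocyte genes 7 were tested and Ucp1 was the only call, beside 5.12% of all genes called with the block. Kcnk3, the most abundant, was at 10.3 and 10.8 CPM in the sham samples, against 19.0 and 8.74 CPM after PNX, Elovl3 had 2 counts and Zic1 had 1 count in all libraries together.

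**Figure D4:**
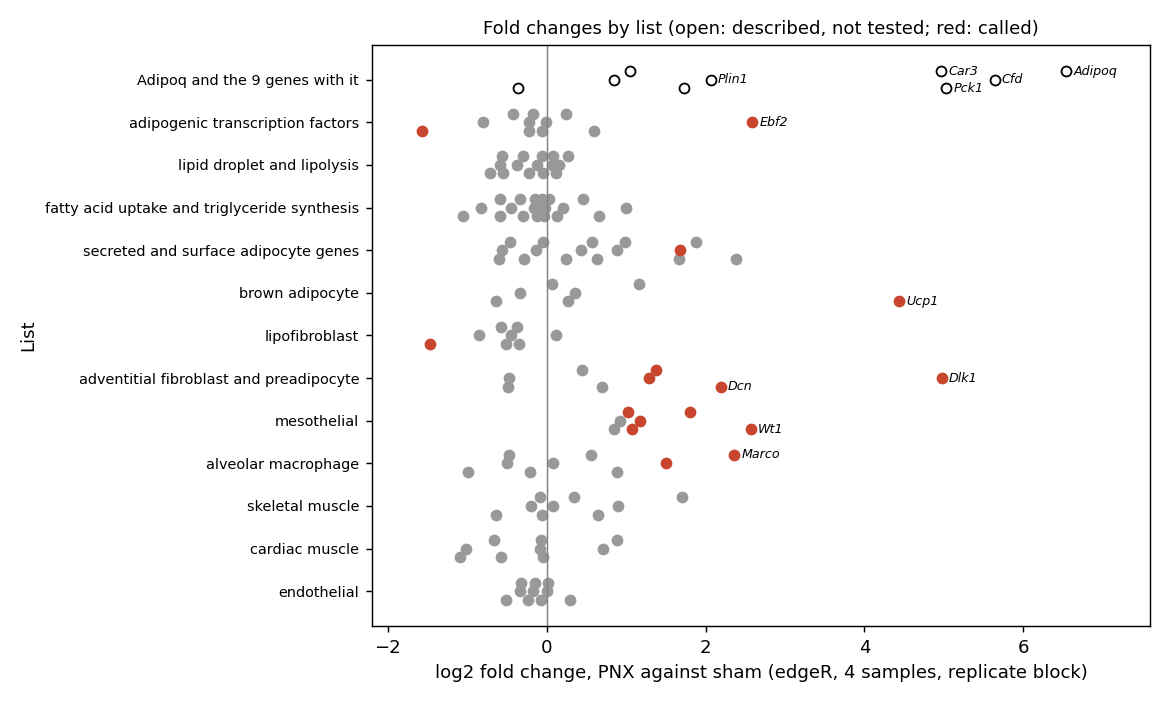
Log2 fold change of PNX against sham for 9 of the 10 genes, without Lep (open circles, described without a test), and for the genes of 4 wider adipocyte lists, brown adipocytes and 7 other marker lists, from edgeR with 4 samples and the replicate block (red, called with this block; grey, not called; without the block 0 genes were called). Adipoq, Cfd, Pck1 and Car3 lie near or above 5. The medians of the 4 wider adipocyte lists range from −0.17 to 0.51, the highest being that of the secreted and surface genes.

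Markers of other cells were measured beside these genes. With the block, 4 of 8 genes of adventitial fibroblasts and preadipocytes were called higher, beside 3.89% of all genes. Dlk1, a preadipocyte protein lost as fat cells mature, had a summed count of 5, 15 and 0 in sham and 250, 207 and 78 after PNX (log2 fold change 4.97, standard error 0.46, edgeR adjusted p = 0.000497 with the block and 0.112 without). Dcn, which encodes the matrix proteoglycan decorin and is the most abundant of the list, was at 78.9 and 191 CPM in the sham samples, against 383 and 825 CPM after PNX (log2 fold change 2.19, edgeR adjusted p = 2.3e-05 with the block and 0.246 without). Mfap5 and Col14a1 had log2 fold changes of 1.38 and 1.28 with the block. Dpp4 and Pdgfra of the same list were at −0.48 and −0.49 and were not called. The summed level of the list was 771 and 820 CPM in the sham samples and 1007 and 1367 CPM in the PNX samples.

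Of 7 mesothelial genes 5 were called higher with the block (beside 3.89% of all genes) and 0 with 6 separate libraries (beside 2.28%). In CPM the groups overlapped for Bnc1 and Lrrn4. For Wt1 and Msln all PNX libraries lay above all sham libraries, as they did for 18.8% of all genes tested. Wt1, a transcription factor of the pleural mesothelium, had a log2 fold change of 2.57 with the block, Msln, the most abundant, 1.81, Bnc1 1.17 and Lrrn4 1.07. The summed level of the list was 108 and 321 CPM in the sham samples, against 273 and 810 CPM after PNX, higher in library 3 of both groups. Of 9 alveolar macrophage genes, Marco (log2 fold change 2.36) and Ctsk (1.50) were called higher with the block, beside 3.89% of all genes. Others had values below 0, among them Ear1 (−0.99), Siglec5 (−0.50), Ear2 (−0.47) and Krt79 (−0.21), none called, and the median was 0.09. The list summed to 1345 and 2464 CPM in the sham samples, against 3195 and 2904 CPM after PNX, with Chil3 making up most of the sum. Among 8 genes of lipofibroblasts, the lipid-storing fibroblasts of the alveolar wall, Inmt was called lower with the block (log2 fold change −1.47), beside 1.23% of all genes. This list, led by Npnt, summed to 4210 and 3662 CPM in the sham samples, against 3736 and 2016 CPM after PNX.

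Skeletal muscle, which also expresses Car3, had 0 of 9 tested genes called, and 6 more of its 15 genes had too few counts to test. Myh4, a myosin of fast fibres, had 0 counts in every library, and the list, led by Tnnt3, summed to 7.68 and 14.6 CPM in the sham samples, against 8.60 and 11.8 CPM after PNX. The summed cardiac muscle list, led by Actc1, was at 16.5 and 25.8 CPM in the sham samples, against 18.4 and 18.3 CPM after PNX, with 0 of 9 tested genes called. The endothelial list, led by Pecam1, had 0 of 10 genes called and summed to 11372 and 9185 CPM in the sham samples, against 9465 and 8507 CPM after PNX. The part of any of these cells in the levels of Adipoq and the genes with it was not tested.

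The genes whose levels followed Adipoq most closely over the 4 samples were sought among 17798 genes, by the root mean square difference of log2(CPM + 0.05) after each gene was centred on its own mean. Car6, a secreted carbonic anhydrase of saliva, came first with a difference of 0.0654, from 0, 1 and 0 counts in sham and 76, 94 and 17 after PNX, nearly the counts of Adipoq itself. Pck1 was the second at 0.230 and Car3 the third at 0.282. Msx3 followed at 0.365, Kcnt1 at 0.383, Krt14 at 0.452, Fabp7 at 0.464, Cd5l at 0.535, Nxpe5 at 0.602, Prss35 at 0.615, Twist1 at 0.622 and Cep55 at 0.625. Krt14 is a keratin of basal epithelial cells, Cd5l a macrophage protein and Twist1 a transcription factor of mesenchymal cells, and Cep55 acts in cell division.

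The other members ranked further from Adipoq. Cfd was at rank 108, Plin1 at 380, Retn at 551, Fabp4 at 695, Aqp7 at 1632 and Cidec at 15648, and Lep was not ranked because it had fewer than 10 counts. The ranks rest on 4 samples, describe these samples and no more, and count genes that were not lower in PNX library 3, such as Twist1, as near to Adipoq.

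**Figure D5:**
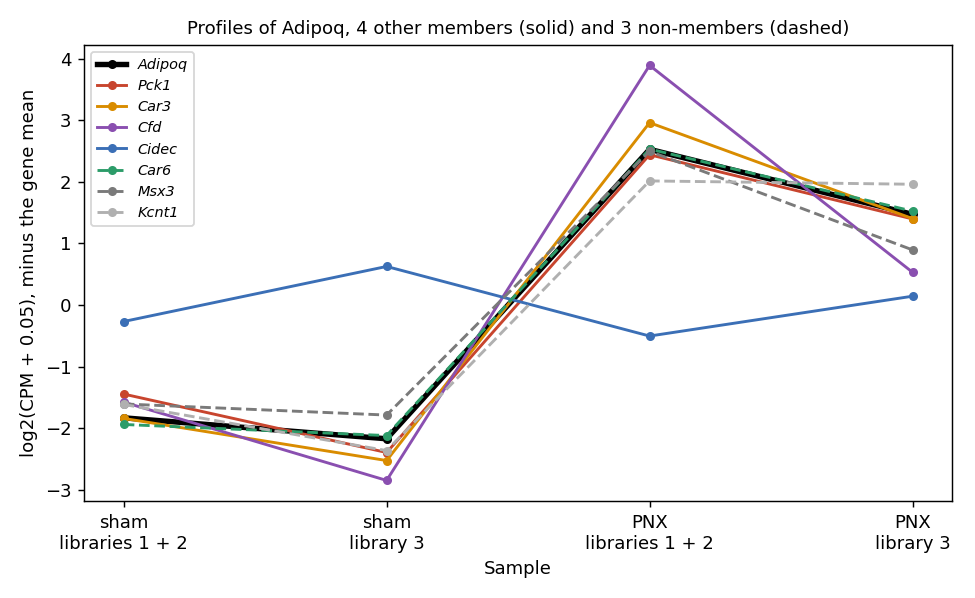
Log2(CPM + 0.05) minus the mean of each gene over the 4 samples, for Adipoq (black), 4 other adipocyte genes of the 10 (solid) and 3 of the genes most like Adipoq (dashed). Car6, Pck1 and Car3 run close to Adipoq, Cfd drops more in PNX library 3, and Cidec is lower in both PNX samples than in sham library 3.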

How the data were processed

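RNA of lung ECs was sequenced by the authors as paired-end, stranded mRNA libraries and counted on the Basepair platform. The submitters' processing notes name STAR and mm10 (GRCm38). How reads were assigned to transcripts, whether by strand and with which annotation release, is not given in the sources used here. For each of 6 libraries, the authors deposited a raw count for each of 33068 RefSeq transcripts, with FPKM and TPM beside it. The deposited TPM values (per length, scaled by the authors) served to compare levels between genes, for the transcript of the highest total, and the deposited FPKM values were not analysed. If reads shared by transcripts were counted on each, intervals on summed counts would be too narrow, so ratios used 1 transcript per gene. The fits used summed counts and keep this limit, with 1 transcript per gene as an alternative.

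Counts were summed per symbol, and libraries 1 and 2 of each group were summed to 1 sample after the chi-square comparison (over single-transcript genes with 20 or more counts in both libraries together). The methods give 3 pools of 2 mice per group, and the comparison of counts showed libraries 1 and 2 closer to each other than to library 3. Library 3 also differed from them in its label and in depth, so these values cannot show how close separate pools would be. CPM used TMM-scaled library sizes. The tests used edgeR 4.0.16 (TMM scaling, filterByExpr, glmQLFit and glmQLFTest) under R 4.3.3, with DESeq2 1.42.0 and limma 3.58.1 (voom) as alternatives, beside other scalings, filters, thresholds, transcripts and libraries left out. The fits were tested on 4 simulated samples, drawn with a difference between the replicate blocks and with the spread estimated by the blocked fit. Of 200 genes given a change, edgeR called 0 with no block and 196 with the block. With no block, DESeq2 called 169 of them and limma-voom 0. Since the block was built into the simulation, it cannot show that the calls made with the block in the real data are right. The study's own differential analysis used DESeq2 on the 6 libraries. The pairing of samples comes from the labels, which mark libraries 1 and 2 of both groups as re-used. Across 14156 genes (no independent replicates), the difference of library 3 from libraries 1 and 2 in sham and in PNX had a Pearson's r of 0.736 and a Spearman's rho of 0.746.

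The 10 genes, the marker lists and the comparisons were chosen with earlier results of these data known. Named genes are the 10, the called genes of each list with the replicate block (up to 4 by size), the most abundant gene of each list, defining markers at 0 counts and the 10 genes most like Adipoq among those with at least 10 counts. Pparg, Cebpa, Lipe, Pnpla2, Plin4, Adig, Mrap, Agt, Aoc3, Elovl3, Zic1, Dpp4, Pdgfra, Ear1, Ear2, Siglec5, Krt79 and the receptors were named in addition after their values were seen. Tested levels used no pseudocount, and likeness used 0.05 CPM. Positions are from GENCODE vM21 on GRCm38 and promoter sequences from RefSeq on GRCm38.p6. Genes overlapping none on either strand are stated as such.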

Additional observations from a re-analysis of the deposited data

How the results depend on the processing

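The number of genes called turned on the tool, the block and the treatment of libraries 1 and 2, and the cause was not tested. Against 0 of 16598 with 4 samples, edgeR called 409 with 6 separate libraries, 849 with the replicate block and 1104 with the block in 6 libraries, and DESeq2 called 587 in 4 samples and 927 in 6. Chosen after seeing the data, the block with DESeq2's size factors gave 624 (540 higher, 84 lower, against 645 and 204), with upper-quartile scaling 646 (548 and 98), with library size alone 629 (550 and 79), in DESeq2 816, with no filter on low counts 985 and with the transcript of the highest total 727. Of the other adipocyte genes, 0 were called with 4 samples, 3 with the block, 6 with the block in 6 libraries, 2 and 6 by DESeq2 in 4 samples and in 6 libraries, and 2, 2, 2, 2, 4 and 3 in the order of the added fits above. The remaining alternatives, limma-voom among them, called 0 in both. Leaving out a library gave 0 to 2 genes with no block (2 without PNX library 3) and 0 other adipocyte genes, and 485 to 863 genes and 1 to 3 other adipocyte genes with the block (671 and 668 without sham libraries 1 and 2, 485 and 863 without PNX libraries 1 and 2). Cidec, at −0.39 on the log2 scale, turned to 0.13 without sham library 3 and was −0.75 without PNX library 3, and the direction of the other fitted genes did not turn (Adipoq 5.99 to 6.75, Cfd 4.95 to 6.13, Pck1 4.24 to 6.81, Car3 4.54 to 5.32, Plin1 1.84 to 2.49, Aqp7 0.23 to 1.43). Retn, Lep and Aqp7 had at most 34 counts per gene and group, which limits what their levels can show.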
